A study of Homo sapiens with 6 samples.

Results

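SR proteins are splicing factors that carry 1 or more RNA recognition motifs and a domain rich in alternating arginine and serine residues. They bind enhancer sequences in exons, help to place the spliceosome on nearby splice sites, and are moved between the cytoplasm and nuclear speckles by the phosphorylation of their RS domain by SRPK and CLK kinases. Many of them limit their own level by including a poison exon, which sends the transcript to nonsense-mediated decay (NMD). The family described here consists of 10 genes, SRSF1, SRSF2, SRSF3, SRSF4, SRSF5, SRSF6, SRSF7, SRSF9, SRSF10 and SRSF11. Each was found in the table of gene values by its symbol alone, and the family was chosen with earlier results of these data known. They are 10 of the 47577 loci of the table, of which 26793 carry a symbol, and all 10 passed the minimum for expression, set at a normalized value of 10 or more in 3 or more of the 6 libraries.

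RNA-seq was performed in OVCAR3, an established line of ovarian cancer cells of the high-grade serous type. The cells received DMSO, the solvent, or 200 nM THZ531, a covalent inhibitor of the transcriptional kinases CDK12 and CDK13, for 6 h, with 3 biological replicates in each group. A free-text treatment field of the records names the related compound THZ1 in place of THZ531, and the groups were taken from the sample titles. Values are polyA+ read counts divided by 1 DESeq2 size factor per library and are called normalized reads below. They are not corrected for gene length. Since all libraries come from 1 cell line in bulk culture, fewer cells and less RNA per cell cannot be told apart, and the values are relative to the other genes of the same library.

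The libraries held 53054048 to 70986130 reads assigned to genes, and each family member rested on 1443 to 30269 reads per library. The size factors ran from 1.078 to 1.26 in DMSO and from 0.794 to 0.88 in THZ531. PAX8, KRT7, KRT8, KRT18, EPCAM, CDH1, MUC16 and WT1, markers of serous and epithelial cells, were all present, although PAX8 fell from 11272 ± 545 to 1241 ± 121 normalized reads (SD, n = 3). The summed level of 8 markers of other cell types was 2157 to 2509 in DMSO and 3773 to 4040 in THZ531, mostly from the collagen genes COL1A1 and COL3A1, with CD3E at 0 in every library. The part of the collagen difference in the results was not tested. Over the 17568 expressed loci, a locus was called when its values differed by 1.5-fold or more with an unadjusted limma p no higher than 0.05. By this rule 6948 loci (39.5%) were called, 2751 higher in THZ531 (15.7%) and 4197 lower (23.9%).

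The windows of 250 bases upstream of the start sites of SRSF1, SRSF5 and SRSF7 are given here because these genes had the most negative, the most positive and a small negative log2 fold change, and because in each of them the table lists another locus on some of the same bases. The sequences are from RefSeq (GRCh38.p14), read 5′ to 3′ on the strand of the SR gene, and capitals mark each match to 1 of 6 motifs or to its reverse complement. These were the TATA box (TATAAA), the CCAAT box, the GC box bound by SP factors (GGGCGG), the core of ETS factor sites (CGGAAG), the core of CREB and ATF sites (TGACG) and the core of NRF1 sites (GCATGCGC).
SRSF1 promoter, chr17:58007247-58007496, minus strand: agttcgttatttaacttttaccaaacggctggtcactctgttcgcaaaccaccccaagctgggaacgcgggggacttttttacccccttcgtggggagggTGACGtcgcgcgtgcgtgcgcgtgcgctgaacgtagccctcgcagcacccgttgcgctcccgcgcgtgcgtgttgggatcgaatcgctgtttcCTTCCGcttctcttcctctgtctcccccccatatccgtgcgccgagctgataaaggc
SRSF5 promoter, chr14:69766892-69767141, plus strand: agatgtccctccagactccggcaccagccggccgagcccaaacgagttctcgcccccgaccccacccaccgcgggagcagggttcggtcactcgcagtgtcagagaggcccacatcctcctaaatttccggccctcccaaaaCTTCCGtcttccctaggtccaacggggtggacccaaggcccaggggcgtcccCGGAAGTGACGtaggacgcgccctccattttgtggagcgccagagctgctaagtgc
SRSF7 promoter, chr2:38751362-38751611, minus strand: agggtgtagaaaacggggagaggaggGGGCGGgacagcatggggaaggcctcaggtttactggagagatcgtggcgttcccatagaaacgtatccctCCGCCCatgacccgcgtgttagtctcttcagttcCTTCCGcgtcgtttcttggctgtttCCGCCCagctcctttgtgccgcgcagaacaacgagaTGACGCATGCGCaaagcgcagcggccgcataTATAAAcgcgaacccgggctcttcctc
The SRSF1 and SRSF5 windows share matches to CGGAAG and TGACG and hold neither a TATAAA nor a CCAAT match, and in SRSF5 a CGGAAG match runs directly into TGACG. The SRSF7 window holds TATAAA close to the start site, 3 GGGCGG matches, CGGAAG, and GCATGCGC, whose first base is the last base of TGACG. Among the 9 members matched to a promoter, TGACG occurred in 5, compared with 21.2% of all 35116 RefSeq promoter windows of the same length, CGGAAG in 4 (16.5% of all), GGGCGG in 3 (42.6%), TATAAA in 3 (10.7%), GCATGCGC in 2 (2.63%) and CCAAT in 1 (32.0%). The share of G and C ranged from 52.0% in SRSF11 to 73.6% in SRSF4, with a median of 58.0% over all windows. A letter match describes the window and shows no binding. SRSF2 has no entry in the promoter table.

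After 6 h of THZ531, SRSF1 was the 1 family member that was called, and it fell, by limma as by edgeR (-0.64) and DESeq2 (-0.62) on the recovered reads. SRSF5 had the largest difference in the opposite direction but stayed under the fold threshold. The other 8 genes had log2 fold changes between -0.12 and 0.27 at the deposited scaling, 5 of them higher with an adjusted p of at most 0.05. Of the 10 members 1 was called (10.0%), compared with 39.5% of all expressed loci and with 26.4% of the 6929 loci with a mean of at least 1000 in DMSO, the range in which every member lies. The median log2 fold change of the 10 genes was 0.16, beside -0.01 over all expressed loci.

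**Figure D1:**
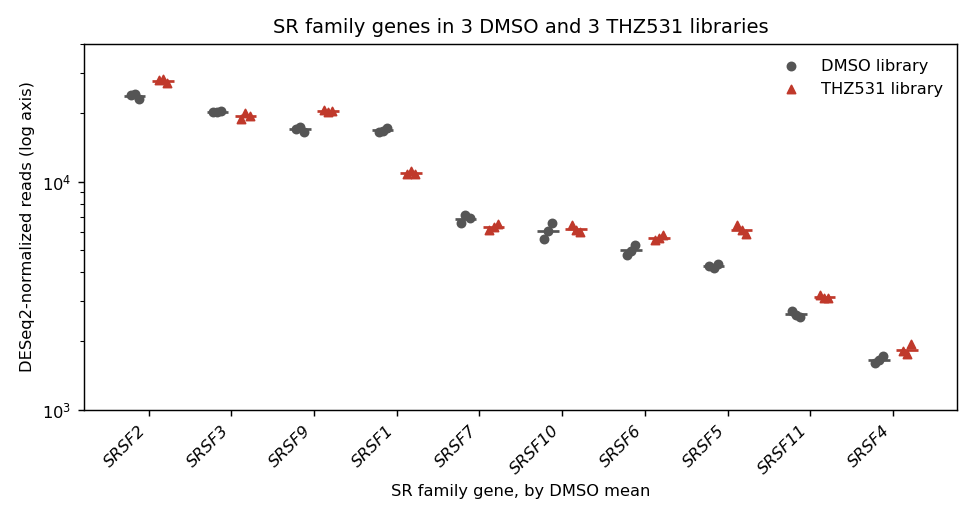
Normalized reads (log axis) of each SR family gene in the 3 DMSO libraries (circles) and the 3 THZ531 libraries (triangles), with a bar at each mean and genes ordered by their DMSO mean. SRSF1 lies between 16440 and 17231 in DMSO and between 10775 and 11083 in THZ531, while the groups of SRSF10 overlap.

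SRSF1, the founding member of the family and a known proto-oncogene, binds purine-rich exonic enhancers through a pair of RNA recognition motifs. It is located at chr17:58000919-58007261 (hg38). Its normalized reads were 16440, 16619 and 17231 in the DMSO libraries and 10834, 11083 and 10775 in the THZ531 libraries. Every treated library was below every control library, with a gap much wider than the spread within either group. The mean went from 16763 ± 415 to 10897 ± 163 (SD, n = 3), a 1.54-fold decrease. On the log2 scale the change was -0.62 (SE 0.035, 95% confidence interval -0.70 to -0.55). The Benjamini-Hochberg adjusted p of limma was 2.3e-10, and the call was kept when any single library was left out (-0.64 to -0.60). The fold of 1.54 is close to the threshold of 1.5, which the confidence interval includes, and no member was called at a threshold of 2.

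SRSF9 is the closest relative of SRSF1 in domain structure, with a shorter RS domain, and it lies at chr12:120461668-120469748. It had 17019, 17334 and 16541 normalized reads in DMSO, a read count near that of SRSF1 before any correction for length, and 20599, 20200 and 20451 in THZ531. The groups did not overlap, and the direction was opposite to that of SRSF1, with a log2 fold change of 0.27 (95% confidence interval 0.20 to 0.34, adjusted p = 2.4e-06 by limma). The ratio of SRSF1 to SRSF9 within a library, which does not depend on the scaling, was 0.966, 0.959 and 1.04 in DMSO and 0.526, 0.549 and 0.527 in THZ531. The pair of genes thus went from about equal read counts to SRSF1 at 0.534 of SRSF9 on average.

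SRSF5 belongs to the members with a second, degenerate RNA recognition motif and a long RS domain, together with SRSF4 and SRSF6. Its normalized reads were 4278, 4164 and 4345 in DMSO and 6479, 6117 and 5882 in THZ531. All treated libraries were above all controls. The log2 fold change was 0.53 (SE 0.044, 95% confidence interval 0.44 to 0.62), a fold of 1.44 with an adjusted p of 2.6e-08 by limma, and thus under the fold threshold for a call, which its confidence interval includes. The locus counted for SRSF5 (chr14:69726899-69772005) spans 45107 bases, compared with 4864 bases for its MANE Select transcript in GENCODE v44, and it starts far upstream of the transcript start at position 69767142.

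SRSF6, an activator of alternative exons, had 4784, 4987 and 5268 normalized reads in DMSO and 5533, 5645 and 5806 in THZ531 (log2 fold change 0.18, adjusted p = 0.0022 by limma). SRSF4, the largest protein of the classical family, had fewer reads, with 1599, 1656 and 1717 in DMSO and 1817, 1762 and 1939 in THZ531 (0.15, adjusted p = 0.03). In both genes the lowest treated library was above the highest control library, but by a margin smaller than the range within the groups. The SRSF4 transcript has the longest intron of the 10 genes (21128 bases), whereas the longest intron of SRSF1 has 416 bases.

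Among the members with 1 RNA recognition motif, SRSF2, a nuclear speckle protein that also acts in the release of paused RNA polymerase II, had the highest number of normalized reads. These were 24031, 24109 and 22877 in DMSO and 27955, 28102 and 26923 in THZ531 (log2 fold change 0.22, 95% confidence interval 0.15 to 0.30, adjusted p = 2.4e-05 by limma). SRSF11, a less typical member, had 2710, 2617 and 2550 in DMSO and 3194, 3079 and 3102 in THZ531 (0.25, adjusted p = 0.00016). For both genes the groups were separated and the THZ531 libraries were the higher ones.

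SRSF3, the smallest SR protein, and SRSF7, which resembles it and adds a zinc knuckle, act both in splicing and as adaptors of the mRNA export receptor NXF1. SRSF3 had 20121, 20193 and 20333 normalized reads in DMSO and 18692, 20007 and 19343 in THZ531, a log2 fold change of -0.06 (95% confidence interval -0.14 to 0.01, adjusted p = 0.11 by limma). SRSF7 had 6587, 7148 and 6924 in DMSO and 6141, 6354 and 6543 in THZ531 (-0.12, 95% confidence interval -0.21 to -0.03, adjusted p = 0.022). The treated libraries of both genes were below the controls, in each case by a gap smaller than the range of the treated group. SRSF10, which becomes a splicing repressor when it is dephosphorylated, had 5597, 6091 and 6585 in DMSO and 6443, 6148 and 6000 in THZ531. Its groups overlapped, and the interval of its log2 fold change ran from -0.09 to 0.14 (adjusted p = 0.66). DMSO replicate 1 was the lowest of its 6 libraries, and the sign turned without it (-0.03).

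By the adjusted p alone, 6 members were higher and 2 were lower in THZ531, and 2 did not pass, compared with 34.6% and 34.1% of all expressed loci in these directions (68.6% in all). The groups of 9 members did not overlap, 6 of them higher (36.0% of all expressed loci) and 3 lower (35.7%) in THZ531. In all, the groups of 71.7% of the expressed loci did not overlap, so groups without overlap were common among all loci of these libraries.

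The direction of the moderate differences turned when the libraries were scaled to the same total or to 1 gene, but not when scaled to their upper quartile. With the upper quartile, the median log2 fold change of all loci was -0.03. The same 7 of the 10 members stayed positive, and the family median was 0.14. When each library was scaled to the same total, the median log2 fold change of all loci moved from -0.01 to -0.25. When the libraries were scaled to the ribosomal protein gene RPL34, it moved to -0.50. Scaling to RPL34 sets that gene equal in all libraries. The difference of RPL34 itself between the groups is thereby taken off every other gene (a shift of -0.49 in the median). With the same total, 3 of the 10 members had a positive log2 fold change in place of 7, and the family median was -0.08. With RPL34, 1 was positive and the median was -0.33. SRSF1 was called at every scaling, with log2 fold changes of -0.86 at the same total and -1.11 with RPL34. SRSF5 had a positive value at every scaling (0.29 and 0.04), and SRSF7 was called with RPL34 (-0.61). The share of all loci called was 41.3% at the same total and 49.0% with RPL34, compared with 1 and 2 of the 10 members.

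**Figure D2:**
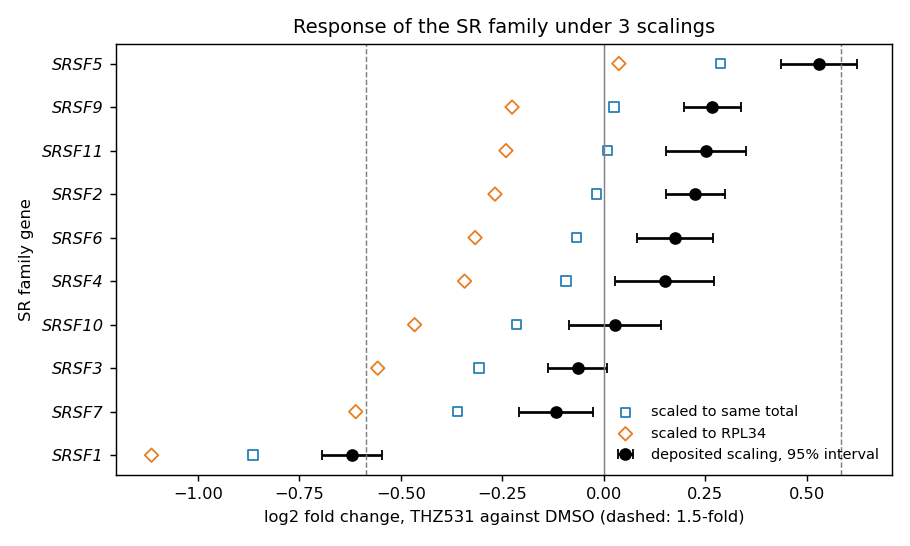
Log2 fold change of each SR family gene, THZ531 against DMSO, at the deposited scaling (filled circles with the 95% confidence interval of limma), scaled to the same total (squares) and scaled to RPL34 (diamonds). Dashed lines mark a 1.5-fold change. SRSF1 lies at -0.62, -0.86 and -1.11 and SRSF5 at 0.53, 0.29 and 0.04, and SRSF9, SRSF11, SRSF2, SRSF6, SRSF4 and SRSF10 lie on both sides of 0 depending on the scaling.

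The make-up of the family within a library is free of this choice. The 10 genes summed to 104151 ± 897 normalized reads in DMSO and 107649 ± 868 in THZ531, but to 0.186% ± 0.0019 and 0.163% ± 0.0019 of all reads counted on genes (SD, n = 3). The family total was therefore higher in THZ531 on the first scale and lower on the second. Within the total, SRSF1 accounted for 15.9%, 15.8% and 16.5% of the family reads in the DMSO libraries and for 10.1%, 10.2% and 10.1% in the THZ531 libraries, a difference of -5.97 percentage points. The shares of SRSF2 (22.7% ± 0.72 to 25.7% ± 0.41), SRSF9 (16.3% ± 0.38 to 19.0% ± 0.30) and SRSF5 (4.09% ± 0.11 to 5.72% ± 0.26) were higher in every THZ531 library than in any DMSO library. SRSF6 and SRSF11 were also separated upward, SRSF3 (19.4% to 18.0%) and SRSF7 (6.61% to 5.90%) downward, and the shares of SRSF4 and SRSF10 overlapped between the groups. For SRSF6 this held only without correction for length, since its shares overlapped by either exon length used below. Shares have a fixed sum, so a lower share of SRSF1 by itself raises those of the other members. For the members with higher shares, log2 fold changes at the same total were -0.018 (SRSF2), 0.025 (SRSF9), -0.067 (SRSF6), 0.009 (SRSF11) and 0.287 (SRSF5).

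**Figure D3:**
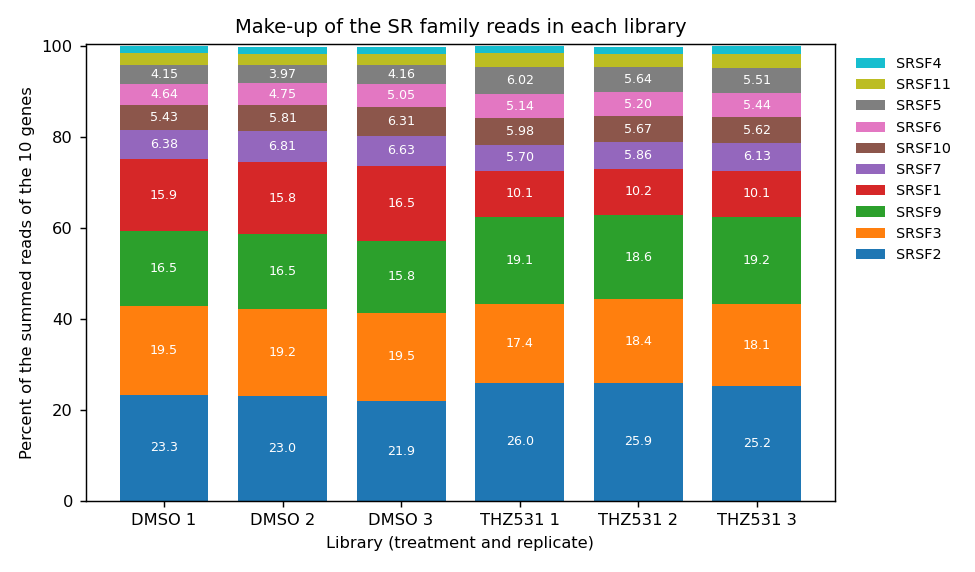
Share of each SR family gene in the summed reads of the 10 genes (percent, stacked bars) in each of the 6 libraries. SRSF1 takes 15.8% to 16.5% in the DMSO libraries and 10.1% to 10.2% in the THZ531 libraries, and SRSF5 takes 3.97% to 4.16% and 5.51% to 6.02%.

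Ratios between members within a library gave the same order. Of the 45 pairs of members, 31 had ratios that did not overlap between the treatments, among them all 9 pairs with SRSF1. The pairs reuse the same genes, so the 9 pairs with SRSF1 repeat its fall. Among single expressed loci, the groups of 71.7% did not overlap, and the share over pairs of other loci was not computed. Relative to SRSF5, SRSF1 went from 3.84, 3.99 and 3.97 in DMSO to 1.67, 1.81 and 1.83 in THZ531, the pair with the lowest and the highest response. When the genes were ordered by their log2 fold change, SRSF1 was separated from the next gene, SRSF7, by 0.50, and SRSF5 from the next, SRSF9, by 0.26, and in both cases the within-library ratios did not overlap between DMSO and THZ531. The other 7 steps in the order were 0.02 to 0.12 wide and their ratios overlapped, so that these neighbours could not be ordered beyond the spread of the libraries.

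To compare levels between genes, normalized reads were divided by the exon length of the MANE Select transcript. In DMSO SRSF9 had the highest level, with 14726 ± 347 normalized reads per kilobase, followed by SRSF2 (12538 ± 365), SRSF3 (4781 ± 25.6), SRSF1 (3137 ± 77.7), SRSF7 (2923 ± 120) and SRSF5 (2849 ± 60.8). SRSF6 (1152 ± 55.8), SRSF10 (795.6 ± 64.5), SRSF4 (720.6 ± 25.7) and SRSF11 (663.2 ± 20.2) came last. SRSF7 and SRSF5 overlapped in this order, as did SRSF10 and SRSF4. In THZ531 SRSF5 was the 4th gene at 4117 ± 201 and SRSF1 the 6th at 2040 ± 30.6 normalized reads per kilobase. SRSF10, SRSF4 and SRSF11 overlapped with their neighbours there, and the other positions were as in DMSO. This order depends on the length used. Per kilobase of all annotated exons merged, a length chosen after the values were seen, SRSF2 was first (7954 in DMSO) and SRSF9 second (4287). On that scale SRSF1 was at 2900 in DMSO and 1885 in THZ531, and SRSF5 at 795.6 and 1150, so that SRSF5 stayed below SRSF1. SRSF1 made up 7.09% of the family in DMSO and 4.12% in THZ531 by the MANE Select length, and 12.9% and 7.84% by all exons. All 10 genes were among the better expressed, from the 65.8th percentile of expressed genes for SRSF4 to the 98.0th for SRSF2 by normalized reads.

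The pattern of SRSF1 over the 6 libraries was compared with that of 8691 loci with a symbol and a mean of at least 500 normalized reads. The nearest were ZC3H11A, a zinc finger protein of mRNA export (distance 0.037 on the log2 scale), CMTM3 (0.043) and PARP14 (0.046), with log2 fold changes of -0.63, -0.62 and -0.60. These loci were picked for a pattern like that of SRSF1, so their similar log2 fold changes follow from the selection. These values describe likeness in 6 libraries only.

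The members share a feature that the rule did not use. GENCODE v44 lists at least 1 transcript of the NMD class for each of the 10 genes (100%), compared with 6099 of 13310 expressed protein-coding genes (45.8%). The number runs from 1 for SRSF5 and SRSF6 to 6 for SRSF7. The members have 6 to 19 annotated transcripts each, and the comparison was not matched for transcript number or level. SRSF8 and SRSF12, outside the family as taken here, also have transcripts of the NMD class (1 and 2). A gene total adds such transcripts to the coding ones, and the table does not separate them. The annotation names 11 pseudogenes of 6 members, of which the table lists SRSF3P2, at 0 in every library, so that reads shared with the others could not be assessed.

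Several SR genes lie next to other genes, and their neighbours were examined after their values had been seen. Of 11 loci within 5000 bases of a member, 9 were expressed, 5 were called lower (23.9% of all loci) and 1 higher (15.7%). METTL23, which ends 12 bases from the end of SRSF2 on the opposite strand, had 787.5, 685.7 and 708.5 normalized reads in DMSO and 141.1, 201.2 and 192.3 in THZ531 (log2 fold change -2.04, adjusted p = 1.4e-09 by limma), while SRSF2 was at 0.22. PNRC2, a decapping cofactor that lies tail to tail with SRSF10, had 4508, 5074 and 5261 in DMSO and 2111, 2212 and 2119 in THZ531 (-1.20, adjusted p = 3e-11), beside 0.03 for SRSF10. These neighbouring genes thus differed from the SR gene beside them in whether they were called.

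Head to head pairs were also mixed. GEMIN6, a subunit of the SMN complex that assembles spliceosomal snRNPs, starts 39 bases from the 5′ end of the SRSF7 locus, inside the SRSF7 window printed above. It had 2304, 2105 and 2306 normalized reads in DMSO and 1330, 1228 and 1278 in THZ531 (log2 fold change -0.81, adjusted p = 5.2e-09 by limma), beside -0.12 for SRSF7. DYNLL1, a dynein light chain that starts 93 bases from SRSF9, had a log2 fold change of 0.40 beside 0.27 for SRSF9, and MFSD11, which overlaps SRSF2 by 1547 bases, had 0.19 beside 0.22, and neither was called. With RPL34 the values of both pairs were below 0. LRRC40, opposite SRSF11, was higher in THZ531 (768.3 ± 13.7 to 1317 ± 63.8, log2 fold change 0.78) and was called at the deposited scaling, but not at the same total (0.53) or with RPL34 (0.28). The start of the SRSF11 MANE Select transcript lies at position 70221380, whereas the counted locus begins at 70205682.

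Of the expressed neighbours 4 overlap a member, so reads could be counted for either gene, and the strand setting used in counting is not given in the sources used here. GATC, which overlaps SRSF9 by 2082 bases, went from 1581 ± 129 to 864.9 ± 9.91 normalized reads (log2 fold change -0.87), against the direction of SRSF9. An unnamed locus at chr17:58006674-58008187, which covers the SRSF1 window printed above and 588 bases of the gene, had 260.4, 352.6 and 392.6 in DMSO and 158.7, 106.8 and 159.3 in THZ531 (-1.24, adjusted p = 1.8e-05 by limma). It was called lower, as SRSF1 was, at a mean of 335.2 normalized reads in DMSO beside 16763 for SRSF1. LOC100289511, across the SRSF5 window, was near the minimum, at 11.91, 0.9279 and 13.56 in DMSO and 28.97, 9.094 and 20.48 in THZ531. It was not called, although it was when DMSO replicate 1, DMSO replicate 3 or THZ531 replicate 2 was left out (log2 fold change 1.82, 1.90 and 1.83), and its log2 fold change was 0.45 in place of 1.39 without DMSO replicate 2.

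**Figure D4:**
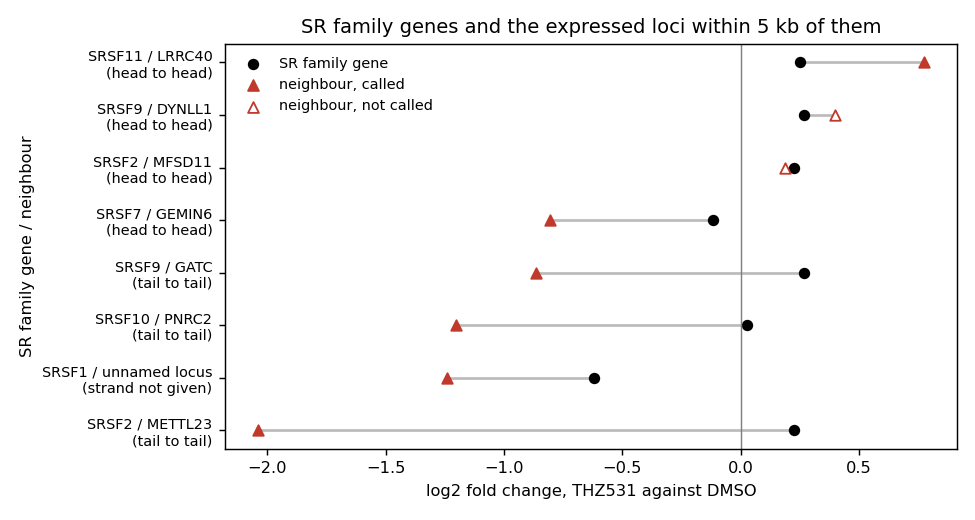
Log2 fold change, THZ531 against DMSO, of an SR family gene (circle) and of a locus within 5000 bases of it (triangle, filled where called), 1 pair in each row, for 8 of the 9 expressed neighbours (the weakly expressed LOC100289511 is not plotted). METTL23 lies at -2.04 and SRSF2 at 0.22, and LRRC40 at 0.78 and SRSF11 at 0.25.

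The genes that surround the family in the splicing pathway were taken from lists. Of 38 further genes for proteins with RS domains (39 expressed loci), 12 loci were called higher (15.7% of all loci) and 1 lower (23.9%), with a median log2 fold change of 0.39. ARGLU1, a coactivator that also acts in splicing, rose from 3835 ± 49.6 to 8149 ± 169 normalized reads (1.09, adjusted p = 1.8e-12 by limma), and 1 of the 2 loci of RSRP1 from 1152 ± 34 to 2397 ± 117 (1.06, adjusted p = 1.8e-10), which was not called with RPL34 (0.56). The other RSRP1 locus was at 218.1 ± 18.8 and 232.8 ± 30.2 (0.09) and was not called. SRSF8 (log2 fold change 0.07) and SRSF12 (0.03), the other genes with an SRSF name, were not called, and at the same total both were below 0 (-0.18 and -0.21). With the same total, 3 loci of the list were called higher (9.38% of all loci) and 3 lower (32.0%), and with RPL34 1 higher (6.14%) and 4 lower (42.8%). With the upper quartile, 10 were called higher and 1 lower, beside 2617 and 4305 of all 17568 loci. The balance of the list thus changed at the same total and with RPL34 but stayed upward with the upper quartile.

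The 1 gene of this list that was called lower was U2AF1, the small subunit of the U2 auxiliary factor, at 1061, 968.7 and 511.4 normalized reads in DMSO and 211.6, 399 and 786.1 in THZ531. Its groups overlapped, and without THZ531 replicate 1 it was no longer called (log2 fold change -0.53), nor was it by DESeq2 (-0.86) or by limma without a variance trend (unadjusted p = 0.13 over all 6 libraries). The table also lists its near-identical copy U2AF1L5 at 16764 to 19634 normalized reads, with a log2 fold change of 0.03, so that the reads of the pair are divided between 2 loci and the value of U2AF1 alone is uncertain.

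**Figure D5:**
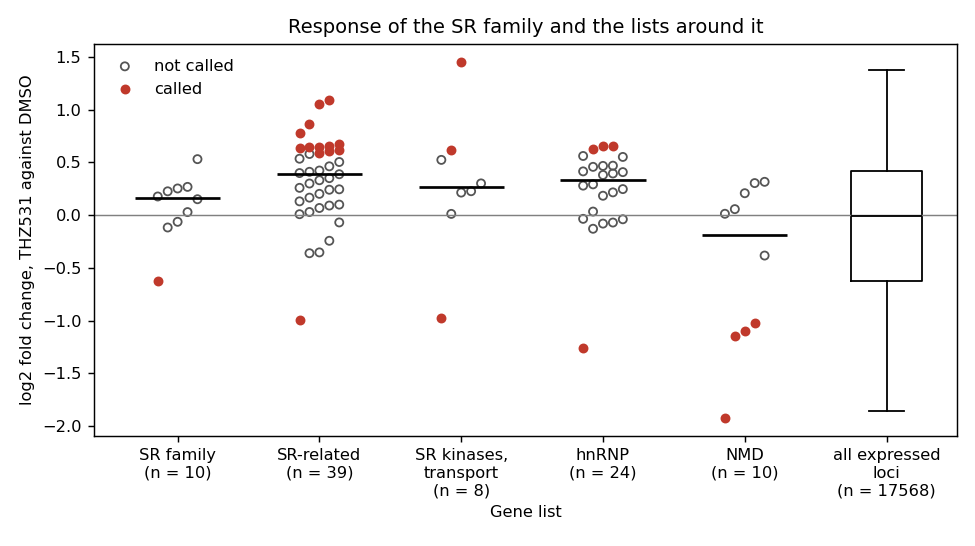
Log2 fold change, THZ531 against DMSO, of each expressed gene (points, filled where called) in the SR family and 4 lists of related genes, with a bar at the median of each list, beside a box plot of all 17568 expressed loci (box from the 25th to the 75th percentile, whiskers from the 5th to the 95th). The medians are 0.16 for the SR family, 0.39 for SR-related genes, 0.26 for SR kinases and transport, 0.34 for hnRNP genes and -0.19 for NMD factors at the deposited scaling, and at the same total they are -0.08, 0.14, 0.02, 0.09 and -0.43.

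Among the kinases that phosphorylate RS domains and the factors that carry SR proteins or their mRNAs across the nuclear envelope, 8 of 9 genes were expressed and CLK1 was listed at 0 in all 6 libraries. An exact 0 in every library can be a failed count, so nothing on the expression of CLK1 is read from it. At the deposited scaling 2 genes were called higher (15.7% of all loci) and 1 lower (23.9%). NXF1, the mRNA export receptor, rose from 4389 ± 67.8 to 12015 ± 156 normalized reads (log2 fold change 1.45, adjusted p = 4.5e-14 by limma), and the kinase gene CLK3 from 3224 ± 116 to 4949 ± 88.7 (0.62). CLK2, of the same kinase family, fell from 3044 ± 86.3 to 1552 ± 140 (-0.98, adjusted p = 1e-09). CLK3 was not called at the same total (0.38) or with RPL34 (0.13). SRPK1, the main cytoplasmic SR kinase, was at 8752 ± 269 and 8818 ± 68.7 and was not called.

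The hnRNP proteins often act against SR proteins at splice sites. Of 24 genes, 3 were called higher (15.7% of all loci) and 1 lower (23.9%), with a median log2 fold change of 0.34. PTBP1 (29504 ± 452 to 46587 ± 527, log2 fold change 0.66) and HNRNPU (50332 ± 1640 to 79273 ± 1190, 0.66) rose at the deposited scaling, as did PTBP2 (0.63), but none of the 3 was called at the same total (0.42 for PTBP1 and 0.41 for HNRNPU). HNRNPDL fell from 14700 ± 764 to 6122 ± 223 (-1.26, adjusted p = 1.1e-12 by limma) and had a larger fall than any SR family gene. Of 10 factors of the NMD pathway, 4 were called lower (23.9% of all loci) and 0 higher (15.7%), and 3 were higher at an unadjusted p under 0.05 with a fold under 1.5. On the recovered reads edgeR and DESeq2 also called 0 higher. SMG9 fell from 1033 ± 78.2 to 271.9 ± 26.1 (-1.92, adjusted p = 8.6e-11) and UPF2 from 941.4 ± 28.3 to 425.2 ± 29.6 (-1.15, adjusted p = 4.9e-09), while UPF1, the central helicase of the pathway, was at 0.30 and was not called. The genes of the drug targets were not called either by limma, edgeR or DESeq2, although CDK12 and CCNK were higher at an unadjusted p under 0.05, with log2 fold changes of 0.39 for CDK12, 0.35 for its cyclin CCNK and -0.02 for CDK13 (with RPL34, all 3 were below 0). THZ531 acts on the kinase proteins, so these values check no label.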

How the data were processed

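PolyA+ RNA from 3 DMSO and 3 THZ531 cultures of OVCAR3 was sequenced with a stranded mRNA kit. Per the methods of the study, the authors mapped reads to hg38 with STAR and counted them on FAST DB genes with featureCounts. The STAR version was 2.7.5a in the submitters' processing notes, whereas the methods name an earlier version. The deposited values are a signal (0 or above), namely read counts divided by a DESeq2 size factor per library. Of these values, 100% came out as whole reads within a tolerance of 0.02 in each library, so the reads were recovered, and 0 value columns were left unused. The strand setting of the counting is not given in the sources used here.

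Values were tested as log2(value + 1) with limma 3.58.1 (trended variance, no covariates, R 4.3.3) over the 17568 loci at 10 or more in 3 or more libraries, a locus was called at the fold and unadjusted p thresholds of the study methods, and p-values were adjusted by the Benjamini-Hochberg method over all of them. This scale understates the change of low genes. On the recovered reads, edgeR 4.0.16 (quasi-likelihood) called 6863 loci and DESeq2 1.42.0 called 6788, beside 6948 by limma. On simulated counts for this comparison with 17545 genes, 200 of them changed, limma called 188 of the changed genes, edgeR 189 and DESeq2 182, none with the wrong sign, and 236, 223 and 140 of the 17345 unchanged genes. These counts are not split by the size of the change, so recovery at a fold near 1.5 is not read from them. Recovery with as many differing loci as the 6948 called here was not tested. Confidence intervals are 95% intervals of the limma fit.

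The members and the lists were chosen with earlier results of these data known. All members were named, and from each list up to 2 called genes in each direction with the largest change, plus SRSF8, SRSF12, CDK12, CDK13, CCNK and the 3 loci nearest to SRSF1 in pattern. Further genes named in the text and the neighbours within 5000 bases were chosen after their values were seen. Transcripts came from GENCODE v44, with MANE Select exon lengths, and promoter windows of 250 bases from RefSeq (GRCh38.p14), in which 9 of 10 members were matched. Protein sequences were not analysed here, and 1 gene of the NMD list is not reported by name. As alternatives, the pseudocount was set to 0.1 or 10, the minimum to 0 or 50 and the fold to 2, libraries were rescaled in 3 other ways, a replicate block was added, adjusted p-values were used for calling, the variance trend was dropped, edgeR and DESeq2 were run, and each library was left out. Python 3.11.15 was used for tables and figures.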

Additional observations from a re-analysis of the deposited data

How the results depend on the processing

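The result for the family rests on 3 libraries in each group of 1 cell line, and gene totals do not separate coding transcripts from NMD transcripts. Sampling noise was small, since every member had at least 1443 reads per library. Both the fold threshold and the scaling moved the counts of calls. Scaling to the same total or to RPL34 also turned directions, whereas scaling to the upper quartile turned none among the members. The number of members called was 1 under every alternative except RPL34 (2) and a fold of 2 (0), and 1 when any library was left out. At a fold of 2 the calls were 4042 over all loci, 2 among SR-related genes, 1 among SR kinases and transport genes, 1 among hnRNP genes and 1 among overlapping loci. Scaled to the same total, 6 SR-related loci and 1 hnRNP gene were called, and with RPL34 5 and 2. The difference in the share of SRSF1 was -2.97 points per kilobase, and -5.04 per kilobase of all annotated exons (chosen after seeing the data), in place of -5.97.

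At the same total, log2 fold changes turned negative for SRSF4 (-0.093), SRSF6 (-0.067), SRSF2 (-0.018), SRSF10 (-0.21), SRSF8 (-0.18), SRSF12 (-0.21) and MFSD11 (-0.053). With RPL34 this held for SRSF9 (-0.23), SRSF4 (-0.34), SRSF6 (-0.32), SRSF2 (-0.27), SRSF10 (-0.47), SRSF11 (-0.24), SRSF8 (-0.43), SRSF12 (-0.45), CDK12 (-0.11), CCNK (-0.14), DYNLL1 (-0.10) and MFSD11 (-0.30). Without 1 library the value ranged from -0.032 to 0.085 for SRSF10 (-0.032 without DMSO replicate 1, -0.001 without THZ531 replicate 1) and from -0.084 to 0.157 for SRSF12 (-0.084 and -0.06). Leaving out each library gave 6453 to 6631 called loci, 10 to 14 SR-related loci, 3 SR kinase and transport genes, 4 to 5 hnRNP genes, 4 NMD factors, 0 drug target genes, 2 to 3 overlapping loci and a difference in the SRSF1 share of -6.10 to -5.77 points.

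Replicates with the same number did not deviate together (correlations over 17568 loci of 0.00168, 0.0186 and -0.0393). The values thus showed no pairing by number, but they cannot tell whether same-numbered cultures were handled together. With the replicate number as a block, 6918 loci and 1 member were called, and LOC100289511 was called in addition.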
